A study of Mus musculus with 6 samples.

Results

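The genes described are 10 components of the COMPASS family of histone methyltransferase complexes: Kmt2c, Kmt2d, Setd1a, Setd1b, Wdr5, Rbbp5, Ash2l, Dpy30, Men1 and Kdm6a. They were found as the probe sets annotated to exactly 1 of these symbols, with no filter on brightness. This gave 12 probe sets for all 10 genes, out of 21789 probe sets with 1 gene symbol and 35556 in all. Kmt2d and Setd1b had 2 probe sets each, and the other 8 genes had 1. RNA was measured on Affymetrix arrays in the dissected forebrain and midbrain part of the head of 6 mouse embryos at E10.5. There were 3 heads labelled Tasp1 KO (Tasp1-/-) and 3 labelled wild type (WT), all on the C57Bl6 background and from intercrosses of Tasp1+/- parents. The allele and its deleted part are not given in the sources used here, and neither is the sex or the litter of an embryo. This tissue holds several cell types, so that fewer cells of a type and less RNA per cell cannot be told apart.

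COMPASS complexes place methyl groups on lysine 4 of histone H3, a mark of active promoters and enhancers. Each complex is built around 1 catalytic SET domain protein. KMT2A and KMT2B (also called MLL1 and MLL2), KMT2C and KMT2D, and SETD1A and SETD1B form paralogous pairs, and all of them use the shared core of WDR5, RBBP5, ASH2L and DPY30. Menin, the product of Men1, belongs to the KMT2A and KMT2B complexes, and UTX, the product of Kdm6a, to those of KMT2C and KMT2D. Taspase1, the protease encoded by Tasp1, cleaves KMT2A and KMT2B into the fragments that make up their mature forms. The comparison addresses whether transcripts of the other methyltransferases and of the shared partners shift when that processing is lost.

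None of the 12 probe sets passed the test of KO-labelled against WT-labelled heads. The dimmer of the Kmt2d probe sets had the largest positive difference at 1.13 times the WT-labelled signal (1.10 in the brighter). Kdm6a had the largest negative one at 0.895 times. Without WT 2 the Kdm6a difference was 0.0047 log2 units, and without WT 1 that of the brighter Kmt2d probe set was 0.010. In the shared core, Rbbp5 and Ash2l were slightly higher and Wdr5 slightly lower in KO-labelled heads. Dpy30 differed by -0.02 log2 units (SE 0.08), and by 0.089 without WT 1. In limma, 0 of the 12 passed an adjusted p of 0.05 and 0 had an unadjusted p under 0.05, and their adjusted p-values ran from 0.857 to 0.984. Over all 21789 probe sets, 0 passed in limma (percent called, 0) and 0 in an ordinary linear model, while 1354 (6.21%) had an unadjusted p under 0.05 in limma. In 0 of the 12 did the KO-labelled heads lie all on one side of the WT-labelled heads, against 10.9% of all probe sets tested. The signals overlapped between the groups for every one of these probe sets.

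Before the members, 3 facts on the heads bear on their values. The Tasp1 signal was 8.63, 8.63 and 8.50 in the KO-labelled heads, against 8.10, 8.45 and 8.49 in the WT-labelled heads. It was thus not lower under the KO label, and every KO-labelled head lay above every WT-labelled head. Of all probe sets tested, 10.9% did not overlap in either direction. The Tasp1 difference was 0.24 (limma, unadjusted p = 0.0335, adjusted p = 0.791), and 0.12 without WT 1 (unadjusted p = 0.117). Where its probe set lies relative to the deletion is not given here, so that it does not check the labels. WT 1 stood apart from the others, with a score of -16.9 on the first principal component, where the other heads lay between -5.15 and 10.2, and with the lowest array median (7.35, against 7.42 to 7.45 in the others). Xist, the RNA that silences 1 X chromosome in females, had a high signal in WT 2 alone. Of the forebrain and midbrain markers, Otx2, Lhx2, Six3, En1 and Sox2 had a probe set with 1 symbol. Their signals were brighter than 52.3% to 96.5% of the probe sets tested.

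Kmt2c and Kmt2d encode the large methyltransferases that mark enhancers. The start regions of both genes and of Kdm6a are printed because Kmt2c and the brighter of the Kmt2d probe sets varied together over the heads and Kdm6a was the member with the clearest single-head difference. Each is the RefSeq window of 300 bases on build GRCm38.p6, from 250 bases before to 50 after the annotated start, 5′ to 3′, with CpG dinucleotides in capitals.
Kmt2c, chr5:25498734-25499033, minus strand: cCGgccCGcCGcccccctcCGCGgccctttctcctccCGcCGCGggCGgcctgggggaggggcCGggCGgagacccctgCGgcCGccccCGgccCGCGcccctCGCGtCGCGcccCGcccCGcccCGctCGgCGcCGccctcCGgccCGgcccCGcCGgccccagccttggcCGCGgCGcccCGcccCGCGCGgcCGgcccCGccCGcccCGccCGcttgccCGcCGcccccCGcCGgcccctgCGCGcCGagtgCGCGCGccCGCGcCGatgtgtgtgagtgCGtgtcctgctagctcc
Kmt2d, chr15:98871156-98871455, minus strand: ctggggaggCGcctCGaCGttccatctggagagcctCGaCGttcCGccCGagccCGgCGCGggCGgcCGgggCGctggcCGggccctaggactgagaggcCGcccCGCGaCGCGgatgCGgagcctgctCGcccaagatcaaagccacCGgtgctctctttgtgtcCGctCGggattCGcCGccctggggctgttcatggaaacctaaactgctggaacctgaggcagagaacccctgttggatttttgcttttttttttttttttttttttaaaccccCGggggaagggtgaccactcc
Kdm6a, chrX:18162325-18162624, plus strand: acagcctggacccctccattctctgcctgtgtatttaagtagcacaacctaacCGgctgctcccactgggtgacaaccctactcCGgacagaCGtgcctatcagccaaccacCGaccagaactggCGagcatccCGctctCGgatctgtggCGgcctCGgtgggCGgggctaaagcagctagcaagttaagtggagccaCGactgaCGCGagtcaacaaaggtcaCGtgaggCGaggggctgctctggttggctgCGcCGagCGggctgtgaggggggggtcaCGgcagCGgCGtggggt

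These windows hold 56 CpG dinucleotides in Kmt2c, 27 in Kmt2d and 21 in Kdm6a. Of the 32841 windows in the table, 99.8% held fewer CpGs than that of Kmt2c, 84.5% fewer than that of Kmt2d and 75.2% fewer than that of Kdm6a. A window was listed for 8 of the 10 genes, 13 windows in all, with a median of 22 CpGs against 7 over all windows. Their lowest count was 1, in 1 of the 4 Dpy30 windows, and their GC content ran from 40.7% to 88.0%. These counts describe the sequence alone, since neither methylation nor binding was measured.

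The Kmt2c signal (probe set 10528723) was 10.28, 10.22 and 10.14 in the KO-labelled heads, against 9.95, 10.21 and 10.18 in the WT-labelled heads. WT 1 alone was low, and the other 5 heads covered the same narrow range. It averaged 10.21 ± 0.07 over the KO-labelled heads, against 10.11 ± 0.14 over the WT-labelled heads (SD, n = 3 each). The difference was 0.10 with an SE of 0.07 (limma, adjusted p = 0.885), and the two-sided exact permutation p was 0.4. Without WT 1 the difference was 0.018.

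Kmt2d was read by a bright and a dimmer probe set. The bright one (10432298) gave 10.51, 10.43 and 10.39 in the KO-labelled heads, against 10.05, 10.42 and 10.44 in the WT-labelled heads. As with Kmt2c, WT 1 was low and the remaining heads overlapped. The difference was 0.14 (SE 0.09, limma adjusted p = 0.878), and 0.010 without WT 1. The dimmer one (10432294) gave 8.24, 8.34 and 8.19 in the KO-labelled heads, against 7.88, 8.08 and 8.30 in the WT-labelled heads. Here both WT 1 and WT 2 lay below every KO-labelled head, and WT 3 lay within their range. Its difference was 0.17 (SE 0.10, limma adjusted p = 0.862), at 0.069 without WT 1 and 0.28 without WT 3, where the unadjusted p was 0.010 and the adjusted p 0.483. Both probe sets of Kmt2d differed in the same direction, and neither passed.

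Setd1a and Setd1b encode the catalytic subunits of the SET1 complexes, which carry out much of the trimethylation at promoters. Setd1a (10557758) read 10.22, 10.16 and 10.22 in the KO-labelled heads, against 10.09, 10.17 and 10.27 in the WT-labelled heads. The lowest and the highest head were both WT-labelled, with the KO-labelled heads between them. The difference was 0.02 (95% confidence interval of the ratio 0.931 to 1.11). Setd1b (10525489) read 10.17, 10.11 and 10.13 in the KO-labelled heads, against 10.03, 10.20 and 10.25 in the WT-labelled heads, a difference of -0.02. Again the KO-labelled heads lay inside the span of the WT-labelled ones. The second Setd1b probe set (10525495) had 9.61, 9.49 and 9.55 in the KO-labelled heads, against 9.38, 9.59 and 9.63 in the WT-labelled heads, a difference of 0.02. The 2 probe sets thus had differences of opposite sign, each smaller than its SE of 0.06 and 0.07. The SET1 pair had limma adjusted p-values from 0.966 to 0.984.

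**Figure D1:**
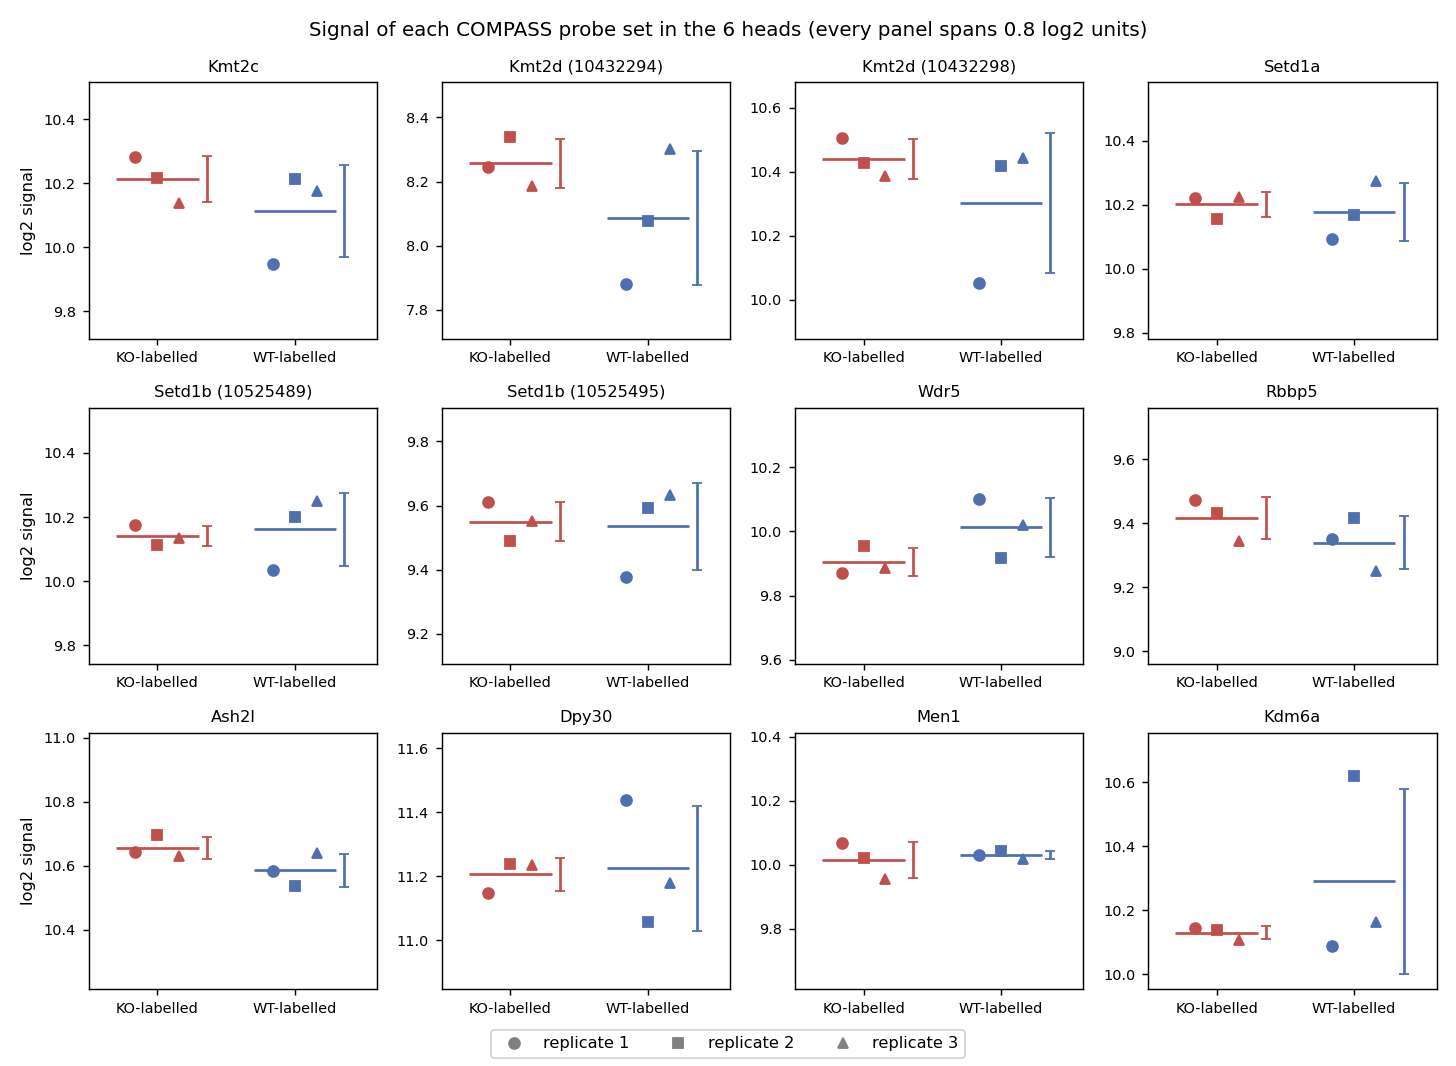
Log2 signal (y axis) of the 12 probe sets in the 3 KO-labelled heads (red, left) and the 3 WT-labelled heads (blue, right). Symbols give the replicate number, horizontal lines the group means and bars the SD. The groups overlap in every panel, WT 1 is the low circle for Kmt2c and both Kmt2d probe sets, and WT 2 is the high square for Kdm6a at 10.62.

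Among the shared core subunits, Wdr5 had the smallest p-value of the 12 probe sets. WDR5 is the WD40 scaffold that binds the catalytic subunits. Its signal (10470427) was 9.87, 9.96 and 9.89 in the KO-labelled heads, against 10.10, 9.92 and 10.02 in the WT-labelled heads. KO 2 lay above WT 2, and the other KO-labelled heads lay below all WT-labelled heads. It averaged 9.90 ± 0.04 over the KO-labelled heads, against 10.01 ± 0.09 over the WT-labelled heads (SD, n = 3 each). The difference of -0.11 (SE 0.06) did not pass (limma, unadjusted p = 0.096, adjusted p = 0.857). The two-sided exact permutation p was 0.2, where 0.1 is the lowest possible for 3 against 3. Without WT 2 the difference was -0.16 (limma, unadjusted p = 0.030, adjusted p = 0.85), and without WT 1 it was -0.064. In the fit without WT 2 every KO-labelled head lay below both remaining WT-labelled heads. In that setting 20.1% of all probe sets tested did not overlap, in either direction.

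RBBP5 and ASH2L together activate the SET domain. Rbbp5 (10349809) read 9.47, 9.43 and 9.35 in the KO-labelled heads, against 9.35, 9.42 and 9.25 in the WT-labelled heads. The difference was 0.08 (SE 0.06, limma adjusted p = 0.891), with KO 3 below WT 1 and WT 2. It was 0.034 without WT 3 and 0.050 without KO 1. Ash2l (10577866) read 10.64, 10.70 and 10.63 in the KO-labelled heads, against 10.58, 10.54 and 10.64 in the WT-labelled heads. Only WT 3 reached into the KO-labelled range, just above KO 3. The difference of 0.07 (SE 0.05) had a limma adjusted p of 0.878, and was 0.044 without WT 2.

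DPY30 is the small dimeric subunit that binds ASH2L. Dpy30 (10452867) read 11.15, 11.24 and 11.23 in the KO-labelled heads, against 11.44, 11.06 and 11.18 in the WT-labelled heads. WT 1 was the highest head and WT 2 the lowest, so that the spread of the WT-labelled heads (SD 0.19) exceeded that of the KO-labelled heads (SD 0.05). The difference was -0.02 (SE 0.08, limma adjusted p = 0.983), and 0.089 without WT 1.

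Men1 and Kdm6a belong to 1 branch each. Men1 (10460879) read 10.07, 10.02 and 9.96 in the KO-labelled heads, against 10.03, 10.04 and 10.02 in the WT-labelled heads, a difference of -0.02 (SE 0.05, limma adjusted p = 0.975). It had the narrowest range over the 6 heads of the 12 probe sets, 0.114 log2 units. The interval of its ratio ran from 0.916 to 1.07.

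Kdm6a (10598798), whose product removes methyl groups from lysine 27 of histone H3, read 10.14, 10.14 and 10.11 in the KO-labelled heads, against 10.09, 10.62 and 10.16 in the WT-labelled heads. WT 2 was high, and the other 5 heads lay between 10.09 and 10.16. The difference of -0.16 (SE 0.11, limma adjusted p = 0.879) therefore rested on WT 2: without it the difference was 0.0047 (95% confidence interval -0.12 to 0.13), and without WT 1 it was -0.26 (unadjusted p = 0.029, limma adjusted p = 0.96). WT 2 exceeded the mean of the other 5 heads, 10.13 ± 0.03 (SD, n = 5), by 0.49 log2 units, or 1.41 times. Kdm6a lies on the X chromosome and is known to escape X inactivation, and its Y-linked paralog is Uty. Uty read 9.69, 9.69 and 9.60 in the KO-labelled heads, against 9.42, 4.72 and 9.71 in the WT-labelled heads. Xist read 4.90 to 5.16 in the KO-labelled heads, against 5.24, 12.32 and 5.11 in the WT-labelled heads. By these signals WT 2 came from a female embryo and the other 5 heads, with all 3 KO-labelled ones among them, from males.

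The same head stood out for the lysine 4 demethylase pair on the sex chromosomes. Kdm5c, X-linked, read 10.26, 10.21 and 10.14 in the KO-labelled heads, against 10.11, 10.503 and 10.22 in the WT-labelled heads, and Kdm5d, Y-linked, read 9.76 to 9.88 in the KO-labelled heads, against 9.83, 5.48 and 9.86 in the WT-labelled heads. The Y-linked translation factor gene Eif2s3y read 9.44 to 10.02 in the KO-labelled heads, against 10.01, 4.52 and 10.02 in the WT-labelled heads. Of the other X-linked genes chosen as markers of sex, Eif2s3x was highest in WT 2 (12.09). Ddx3x was not: its probe sets were highest in WT 1, at 11.16 and 11.76, against 11.04 and 11.65 in WT 2. Kdm6b, the autosomal paralog of Kdm6a, lay between 10.32 and 10.43 in all 6 heads, WT 2 included. Over all probe sets, 6 of 21789 (0.0275%) had WT 2 highest by at least the 0.459 log2 units of Kdm6a, and 2 of these 6 were X-linked, Kdm6a and Xist.

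**Figure D2:**
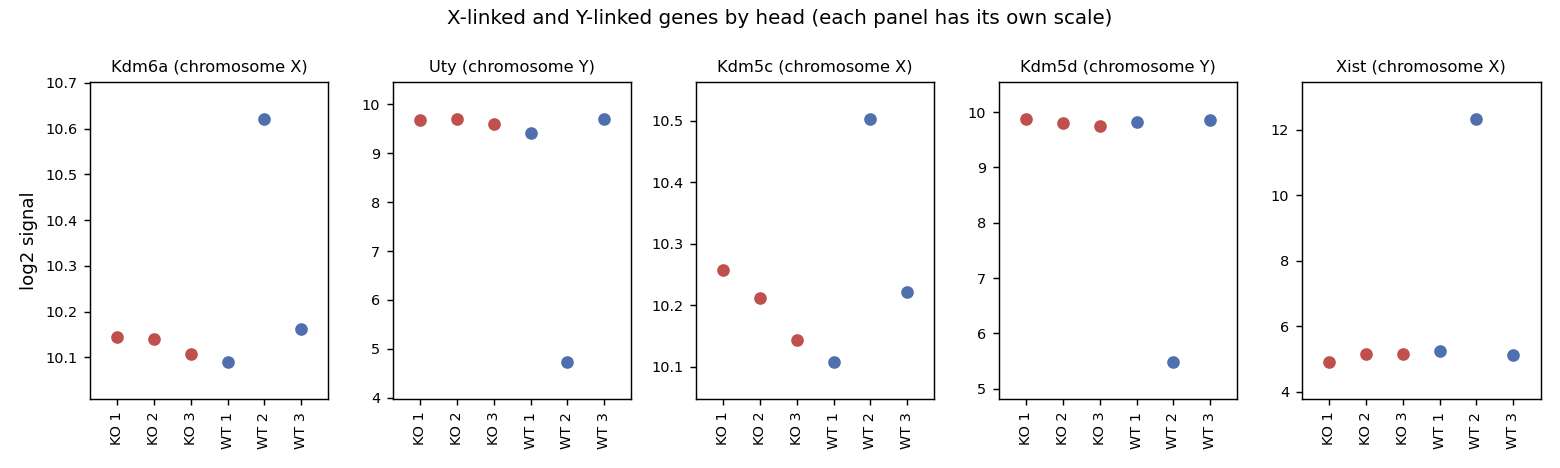
Log2 signal (y axis, each panel with its own scale) of Kdm6a, its Y-linked paralog Uty, the demethylase genes Kdm5c and Kdm5d, and Xist in each head (x axis), KO-labelled in red and WT-labelled in blue. WT 2 is the high point for Kdm6a, Kdm5c and Xist and the low point for Uty and Kdm5d.

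The members' differences were small in both directions. Of the 12, 7 were positive and 5 negative (58.3% positive), with a median of 0.019. Of all 21789 probe sets 43.7% were positive, with a median of -0.012. With each gene read by its brightest probe set, 5 of the 10 members were positive and 5 negative. Their median was then 0.0042, against -0.013 over 19938 genes. The absolute difference had a median of 0.07 over the 12 member probe sets and 0.05 over all probe sets. Their median SE was 0.07, as it was over all probe sets. The 95% confidence intervals of all 12 ratios held 1, with the lowest bound at 0.752 for Kdm6a and the highest at 1.31 for the dimmer Kmt2d probe set. Changes inside these intervals could not be told from 0 with 3 against 3 heads. The ratios are of array signals, which can understate changes in transcripts.

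**Figure D3:**
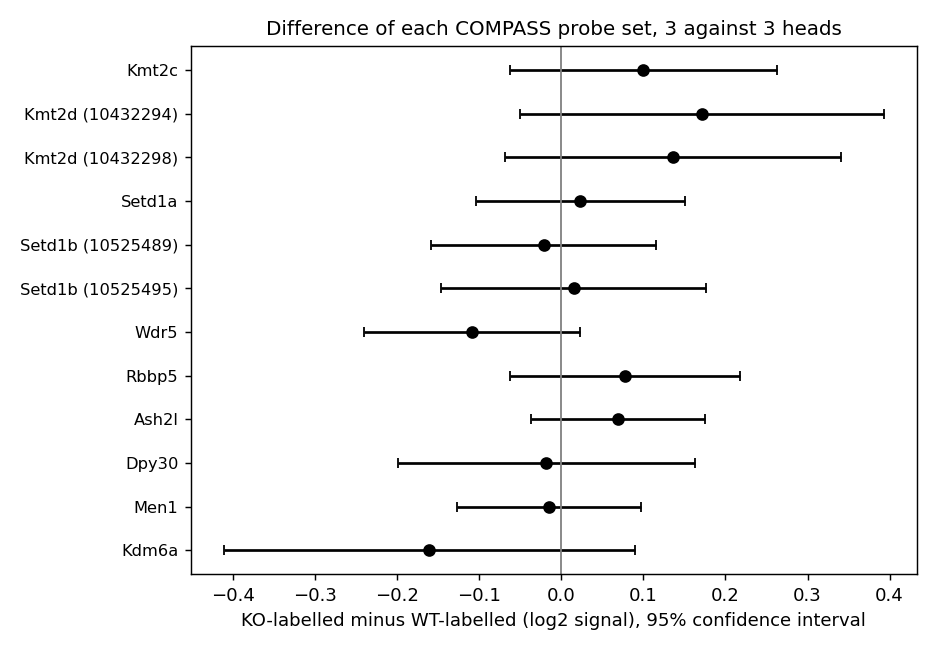
KO-labelled minus WT-labelled difference in log2 signal (x axis) of each probe set (rows, grouped by role), with 95% confidence intervals from limma. Every interval crosses 0, and Kdm6a and the dimmer Kmt2d probe set have the widest.

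WT 1 held the extreme value of most members. In WT 1 all 6 probe sets of the catalytic subunits were the lowest of the 6 heads, by 0.13 to 0.376 log2 units below the median of the others. Of the 4 core subunits, Wdr5 and Dpy30 were highest in WT 1, at 0.185 and 0.261 above that median. WT 1 was the lowest head in 7 of the 12 member probe sets and the highest in 2, against 19.7% and 26.5% of all probe sets tested. The cleaved paralogs gave the same head as the lowest: Kmt2a (10592942) read 11.07, 11.04 and 10.91 in the KO-labelled heads, against 10.63, 11.04 and 11.004 in the WT-labelled heads. Its difference was 0.12 (limma adjusted p = 0.893), and -0.014 without WT 1. Kmt2b (10562005), whose difference was 0.02, ranged only from 9.67 to 9.83 over the 6 heads.

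The SD over the WT-labelled heads exceeded that over the KO-labelled heads in 11 of the 12 probe sets, Men1 being the exception, against 54.9% of all probe sets. The 12 probe sets were read in the same 6 heads, so they are not independent cases, and WT 1 was an extreme head in most of them. For the members the median SD was 0.05 over KO-labelled heads, against 0.13 over WT-labelled heads. Over all probe sets it was 0.07 over KO-labelled heads, against 0.08 over WT-labelled heads. Without WT 1, differences of 6 member probe sets were positive and 6 negative, with a median of -0.0026.

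**Figure D4:**
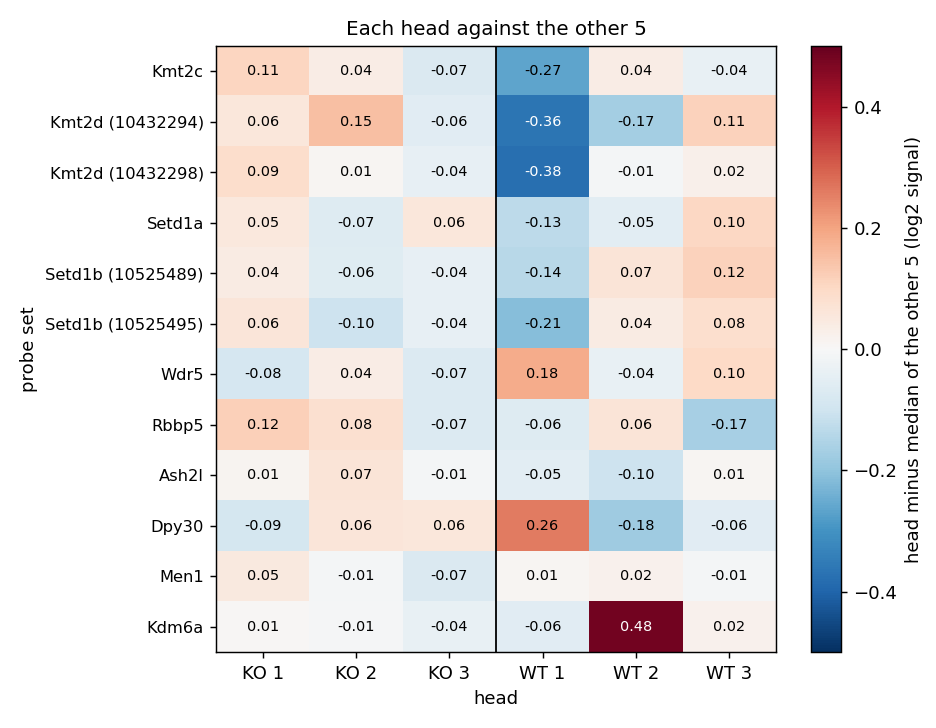
Each cell gives a head's log2 signal minus the median of the other 5 heads (colour, with the value printed), for the 12 probe sets (rows) and the 6 heads (columns, KO-labelled left of the line). WT 1 is low for the 6 catalytic probe sets and high for Wdr5 and Dpy30, and WT 2 is 0.48 high for Kdm6a.

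Likeness of profile over the heads was measured by Pearson r between probe sets of different members. For Kmt2c the most alike was the bright Kmt2d probe set, with an r of 0.973 over the 6 heads and 0.885 without WT 1. The dimmer Kmt2d probe set was also most like Kmt2c, with an r of 0.784, but this rested on WT 1, since without it the value was 0.0857. Its r with Ash2l was 0.756, and 0.939 without WT 1. Setd1a was the most like both Setd1b probe sets, with r of 0.836 and 0.885, and 0.621 and 0.715 without WT 1. For Dpy30 it was Wdr5, with r of 0.724, which dropped to 0.13 without WT 1. The 2 probe sets of Kmt2d had an r of 0.853, and 0.297 without WT 1, so that their likeness rested on that head, whereas those of Setd1b had 0.956 and 0.901. These values describe 6 heads that share their arrays' scaling, and how often other probe sets reach such values was not tested.

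**Figure D5:**
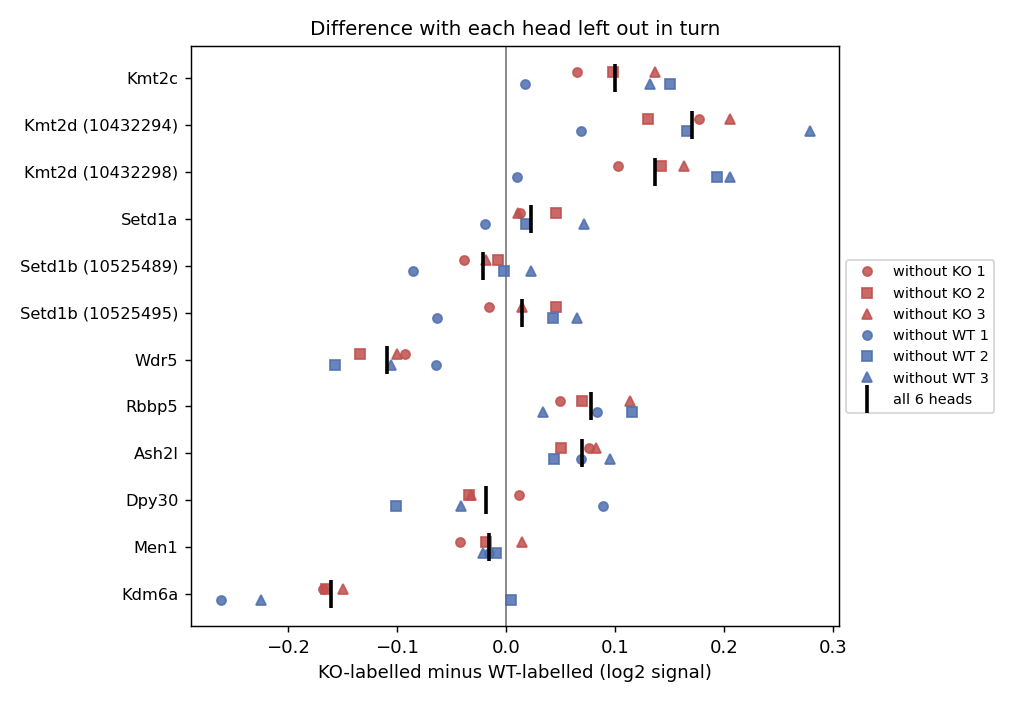
KO-labelled minus WT-labelled difference in log2 signal (x axis) of each probe set with all 6 heads (black bar) and with 1 head left out (symbols, KO-labelled heads red and WT-labelled heads blue). Without WT 1 the Kmt2c difference is 0.018, and without WT 2 that of Kdm6a is 0.0047.

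In the wider pathway the tested genes split evenly. Of 49 further genes in 6 lists, each read by its brightest probe set, 25 had a positive and 24 a negative difference, with a median difference of 0.00093, against -0.013 over 19938 genes. In limma 0 of the 49 passed the adjusted threshold and 0 had an unadjusted p under 0.05, against 6.02% of all genes. The groups did not overlap for 3 of them (6.12%), against 11.1% of all genes: Suz12 (0.10) and Ezh1 (0.07), which encode subunits of the Polycomb complex that methylates lysine 27 of histone H3, and Bptf (0.04), a reader of lysine 4 methylation. A second Bptf probe set overlapped between the groups. The 11 further COMPASS components and related proteins ran from -0.13 to 0.07. They include Cxxc1 and Wdr82 of the SET1 complexes, Ncoa6 of the KMT2C and KMT2D complexes, the menin partner Psip1, Hcfc1 and Hcfc2, which several branches share, and the divergent family member Kmt2e, which had the highest value. The 14 readers ran from -0.06 to 0.06, the 11 Polycomb genes from -0.06 to 0.10 and 5 other lysine 4 methyltransferases from -0.03 to 0.10. The 6 lysine 4 demethylases ran from -0.07 to 1.42, and the lysine 27 demethylase genes Kdm6b and Uty had -0.0011 and 1.71. The largest of these, Kdm5d and Uty, are the Y-linked genes that were low in WT 2, and both count among the 25 positive differences.

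Some markers of cell types in the tissue differed between the groups before adjustment. Unadjusted p-values under 0.05 in limma were found for the forebrain gene Lhx2 (-0.33), Sox10 of the neural crest (-0.38), C1qb of macrophages (-0.30) and the globin Hbb-bh1 (-0.21). None of them passed adjustment in limma (adjusted p = 0.296 to 0.699). Such p-values were held by 1 of 5 forebrain and midbrain markers and 1 of 5 mesenchyme and neural crest markers. The same held for 1 of 4 macrophage markers, 1 of 3 erythroid markers and 0 of 4 endothelial markers, against 6.02% of all genes. The summed log2 signal of 3 erythroid markers ran from 34.4 to 34.7 over the KO-labelled heads, against 34.8 to 35.1 over the WT-labelled heads. That of 4 macrophage markers ran from 27.9 to 28.75 over the KO-labelled heads, against 28.77 to 28.9 over the WT-labelled heads. For both lists every KO-labelled head lay below every WT-labelled head, and how often sums of other genes do so was not tested. Of the single genes only 1 in each list did so, Hbb-bh1 and C1qb. Among all genes 11.1% did not overlap, in either direction. The marker lists were chosen with earlier results of these data known, so setting them beside these shares is not a test. Of the 5 forebrain and midbrain markers 3 had a positive difference, with a median of 0.03, and of the 5 mesenchyme and neural crest markers 3 had a positive difference, with a median of 0.0016. The sums of these lists and of 4 endothelial markers overlapped between the groups. Their part in the members' values was not tested.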

How the data were processed

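RNA of 3 KO-labelled and 3 WT-labelled heads was prepared from 100 ng of total RNA each, per the labels' protocols. The authors deposited 1 table of log2 signals for 35556 probe sets. Affymetrix Expression Console and MAS5 are listed, with no roles, in the submitters' processing notes. Their background correction, scaling and summary method stay unknown here. Values lay between 2.73 and 14.4, array medians between 7.35 and 7.45, and they were taken as normalised between arrays and used unchanged.

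The platform annotation gave 21789 probe sets 1 symbol, 1621 had several, and 12146 were not listed and are unnamed here. Those with 1 symbol were compared with limma 3.58.1 (R 4.3.3; lmFit, eBayes with trend), as two-sided tests adjusted over all of them by Benjamini-Hochberg at a threshold of 0.05. The members and gene lists were chosen with earlier results of these data known. All members are named, and of each list up to 4 genes with an unadjusted p under 0.05. Suz12, Ezh1 and Bptf were named after their values were seen. The procedure was tried on simulated data with independent errors, no outlying head and changes larger than those of the members. That trial does not show whether changes of the members' size would be found. Same-numbered heads did not deviate together, and the labels state no pairing. The number of arrays limits the precision. Replicates are separate embryos per the labels. Alternatives covered scaling, pseudocounts, filters, probe set choice, variance models, Xist signal as a covariate, a replicate block and each head left out. WT 3 alone against the KO-labelled heads was added after seeing the data. Promoter windows are from RefSeq (GRCm38.p6). Figures were drawn with matplotlib 3.10.9.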

Additional observations from a re-analysis of the deposited data

How the results depend on the processing

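Under all 22 alternatives 0 member probe sets passed in limma or in the ordinary linear model, with a smallest adjusted p of 0.483. Of the member differences, 242 of 261 kept their direction, and Kmt2c, Wdr5, Rbbp5 and Ash2l kept it in every setting. The variance models other than array weights, the replicate block and fits over more or fewer probe sets cannot change a difference. Their agreement was fixed in advance, so the count of 242 overstates how stable the directions were. Over all probe sets, limma called 1 with median centring, 1 with array weights, 2 with the brightest probe set of a gene, 2 with probe sets averaged per gene and 9 with all probe sets of the table, and 0 to 8 with 1 head left out (8 without KO 1, 1 without WT 1). The KO-labelled and WT-labelled heads did not overlap for 2 members with quantile normalization (Wdr5 lower, Ash2l higher; 12.9% of all probe sets), for 1 with median centring (Ash2l; 11.3%) and for 0 to 3 with 1 head left out (17% to 25.5% of all), the 3 without KO 3 being Kmt2c, Rbbp5 and Ash2l. With WT 3 alone they did not overlap for 6 (46.1% of all).

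Differences changed sign as follows, and the causes were not tested. For Kdm6a the difference was 0.011 with Xist signal as a covariate, and ran from -0.26 to 0.0047 with 1 head left out, the positive one without WT 2. For Dpy30 it was 0.0032 with median centring, 0.036 with array weights and 0.029 against WT 3 alone, and -0.10 to 0.089 with 1 head left out. For Men1 it was 0.0060 with median centring, and -0.042 to 0.015 with 1 left out. For Setd1b (10525495) it was -0.0031 with the mean of its probe sets, -0.019 with array weights and -0.084 against WT 3 alone, and -0.063 to 0.065 with 1 left out. For the other Setd1b probe set it ran from -0.085 to 0.023 with 1 left out. For Setd1a it was -0.072 against WT 3 alone, and -0.019 to 0.071 with 1 left out. For Kmt2d it was -0.044 and -0.0017 against WT 3 alone. For Kmt2a it ran from -0.014 to 0.19 with 1 left out. For Kmt2b it was -0.0043 with the Xist covariate and -0.084 against WT 3 alone, and -0.014 to 0.069 with 1 left out. The second Bptf probe set gave -0.021 against WT 3 alone, and -0.030 to 0.11 with 1 left out.

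With the replicate number as a replicate block, 0 probe sets of all and 0 members passed. In this balanced design the block cannot change a difference, only its SE, so it does not check the directions. Deviations from the group means of same-numbered heads correlated at -0.14, -0.14 and -0.29.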
